A study of Mus musculus with 9 samples.

Results

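Mitochondrial ribosomal proteins are the nuclear-encoded parts of the ribosome that works inside mitochondria. Their genes were taken here by symbol, as Mrpl or Mrps followed by a number, and 71 of the 22180 genes measured carried such a symbol. Periprostatic fat, which surrounds the prostate, came from male C57BL/6J mice (the sample labels give C57BL/6) and was measured on Affymetrix Mouse Gene 2.0 ST arrays with 1 mouse per array. Fat gave 60 percent of the calories eaten by the 5 high fat mice and 10 percent of those eaten by the 4 low fat mice, each from 6 weeks of age for 12 weeks, so that all mice were 18 weeks old. No mouse carried a transgene or received a drug according to the labels, and every contrast is between these 2 diets, with no group on another diet.

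The mitochondrial ribosome makes only the few proteins that mitochondrial DNA encodes, all of them subunits of the respiratory chain and the ATP synthase. Its proteins are translated in the cytosol, imported, and assembled with mitochondrial ribosomal RNA into a large subunit, which forms peptide bonds, and a small subunit, which reads the messenger. Some descend from bacterial ribosomal proteins and others do not. In fat, mitochondria supply energy and substrates for making and breaking down lipid, and white adipocytes hold fewer of them than brown ones.

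Of the 71 genes, 45 encode proteins of the large subunit and 25 proteins of the small subunit. Mrps30 and Mrps18a are counted with the large subunit, where their proteins sit despite their names. Mrps36 belongs to neither, since its product is now known as a component of the oxoglutarate dehydrogenase complex. By origin, 43 have a counterpart among bacterial ribosomal proteins, called a bacterial homologue here, and 27 have none. Mrps18a and Mrps18b are counted among the 27, since the bacterial place is held by Mrps18c. Mrpl58 is counted there too, because the bacterial protein it resembles is a rescue factor and not a ribosomal protein. RefSeq lists 78 coding genes with such symbols, and the other 7 (Mrpl30, Mrpl33, Mrpl41, Mrpl43, Mrpl44, Mrpl53 and Mrps6) lay only on probe sets that list several genes and were not analysed here. Of the 71, 9 had more than 1 probe set and are given by the brightest; only for Mrpl36 did the probe sets differ in sign (0.03 for the brighter and -0.07 for the dimmer). RefSeq also lists 6 pseudogenes with these names, whose transcripts could share probes with the coding genes.

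Values are log2 expression as the submitters deposited it, and a difference of 0 means equal levels. Array medians over all genes lay between 6.96 and 6.98 in high fat mice and between 6.91 and 6.95 in low fat mice. Centring each array on its median therefore lowered every difference of high fat minus low fat by 0.04. Both scalings are given below, because a shift of that size is comparable to the differences of many of these genes. Adipocyte markers averaged 12.4 to 12.6 in high fat mice and 12.7 in each low fat mouse. The genes of prostate and seminal vesicle averaged 5.65 to 5.75 and 5.59 to 5.71, below the array medians. Of that list, however, Krt8 lay above the array medians in every mouse (7.378 to 8.235), and Krt18 ran from 6.892 to 7.507. Skeletal muscle genes stood high in high fat mouse 1, whose list mean was 8.64 while high fat mice 2 to 5 had 6.65 to 6.76. Among low fat mice their mean stood high in mouse 4, at 7.56, while mice 1 to 3 had 6.77 to 6.84. Myh1 of that list did not follow, being at 5.304 in low fat mouse 4 and at 5.346 to 5.523 in low fat mice 1 to 3. Smooth muscle genes averaged 10.0 in low fat mouse 2 and 8.03 to 8.04 in its group mates, with 8.17 to 8.33 in high fat mice. The brown adipocyte list averaged 6.70 to 7.14 in high fat mice and 6.78 to 6.96 in low fat mice 1, 3 and 4, but 7.66 in low fat mouse 2. In that mouse Ucp1, which lets brown adipocytes make heat, reached 7.72 and Cox8b, a cytochrome oxidase subunit of brown fat and muscle, at 10.64. In high fat mice they had 5.89 to 5.97 and 8.44 to 9.52, and in the other low fat mice 5.66 to 5.74 and 8.69 to 9.16. Not all of the list followed. In low fat mouse 2 Zic1 was at 5.843, the lowest of the low fat mice, and Ppara at 7.975 lay below low fat mouse 4 (8.007). Of the 8 brown adipocyte genes 2 were lower with high fat diet (25%) and 0 higher, in either scaling. Among all genes 9.13% were lower and 12.4% higher as deposited, and 13.8% and 10% with centred arrays. The 2 were Cidea, a lipid droplet protein, 1.99-fold, and Ppara, a receptor that drives fatty acid oxidation, 1.39-fold (limma adjusted p = 0.033 and 0.00559). Elovl3, Cox7a1 and Dio2 of the same list had positive differences of 0.34, 0.32 and 0.07, which did not pass (limma adjusted p = 0.105, 0.246 and 0.681).

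Transcripts of mitochondrial ribosomal proteins tended to be lower in high fat mice, by small and uneven amounts. Over the 71 genes the median difference was -0.08 on the log2 scale (high fat minus low fat), which is 1.06-fold lower, with quartiles of -0.16 and -0.01. The difference was below 0 for 55 of the 71 genes (77.5%), against 50.4% of all genes, whose median was -0.001. By limma with Benjamini-Hochberg adjustment over all genes and a threshold of 0.05, 6 of the 71 were lower (8.45%) and 0 were higher. Of all genes, 9.13% were lower and 12.4% higher, so as deposited the share of members that fell was near that of all genes, while the share that rose was below it. With genes below the median level left out, 8 of 64 members were lower (12.5%), less than the 17.4% of the genes kept. In that fit 1 member was higher, against 2548 of 11090 genes. At an unadjusted p under 0.05, 23 members were lower and 1 was higher, against 15% and 17.7% of all genes.

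With arrays centred on their medians, the median difference of the members was -0.12 (1.09-fold lower) and 60 of 71 lay below 0. In the limma fit 15 were then lower (21.1%) and 0 higher, against 13.8% lower and 10% higher among all genes. With quantile normalization repeated, 20 were lower (28.2%) and 0 higher, against 12.5% and 10.5% of all genes. With cyclic loess between arrays, 8 were lower (11.3%), against 10.2% of all genes, and 1 was higher, against 2684 of 22180 genes. On centring, the median of all genes moved by the same 0.04 and stood at -0.05, so the members lay 0.08 below it under either scaling. The array values of the diets did not overlap in 7 members that were lower and 1 that was higher as deposited, with 9.15% and 11.6% of all genes. They did not overlap in 19 and 1 members after centring, with 17.7% and 9.04% of all genes.

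The differences were small as well as uneven. No member differed by more than 0.5 on the log2 scale (0 of 71), a size that 7.57% of all genes exceeded. The most negative difference was -0.38 and the highest 0.21. The SD of the differences over the members was 0.12, against 0.31 over all genes, and their interquartile range was 0.16 against 0.18. The SE of a single member's difference ran from 0.04 (Mrps2) to 0.15 (Mrpl20), so sampling error alone would spread the differences. Whether their unevenness exceeds that spread was not tested. For 47 members the 95% interval of the difference included 0, and across all members these intervals ran from -0.55 to 0.44. For 69 members the whole interval lay within 0.5 of 0.

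**Figure D1:**
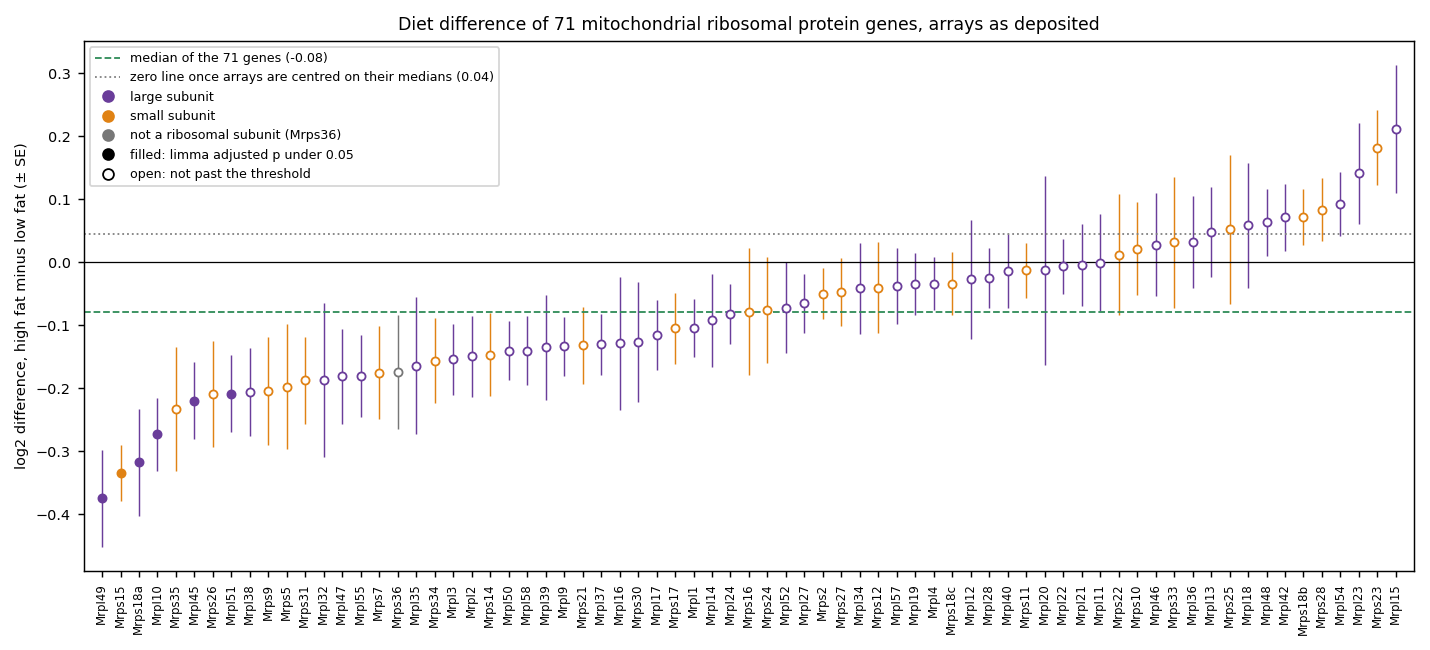
Log2 difference of high fat minus low fat (vertical axis, ± SE) for each of the 71 genes, ordered along the horizontal axis, with arrays as deposited. Purple points are large subunit genes, orange points small subunit genes and the grey point Mrps36; filled points passed the limma test, the dashed line is the members' median of -0.08, and the dotted line marks where 0 would lie with centred arrays (0.04). The points run between -0.38 and 0.21, and the 6 filled ones lie among the 8 lowest.

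The 6 members that fell were Mrpl49, Mrps15, Mrps18a, Mrpl10, Mrpl45 and Mrpl51. Mrpl49, a large subunit protein without bacterial homologue (probe set 17361915), had 9.79, 9.69, 9.43, 9.69 and 9.62 in high fat mice 1 to 5, against 10.04, 9.96, 9.92 and 10.16 in low fat mice 1 to 4. Every high fat mouse lay below every low fat mouse. The difference was -0.38 ± 0.08 (SE), 1.30-fold lower, with a limma adjusted p of 0.00643.

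Mrps15, the small subunit homologue of a bacterial protein that binds ribosomal RNA early in assembly (probe set 17418507), had 9.88, 9.90, 9.94, 9.91 and 9.83 in high fat mice, against 10.16, 10.24, 10.19 and 10.33 in low fat mice. The high fat values were close together, with an SD of 0.04 (n = 5) against 0.07 (n = 4) in low fat mice, and the diets did not overlap. The difference was -0.33 ± 0.04 (SE), 1.26-fold lower, and its limma adjusted p of 0.000632 was the smallest of the 71.

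Mrpl10, the base of the flexible stalk of the large subunit that recruits translation factors (probe set 17255719), had 10.68, 10.67, 10.55, 10.65 and 10.54 in high fat mice, against 10.85, 11.02, 10.76 and 10.92 in low fat mice. It was the brightest member, and its diets did not overlap. The difference was -0.27 ± 0.06 (SE), 1.21-fold lower, with a limma adjusted p of 0.00783. Its dimmer probe set fell by 0.17 in a limma fit over all rows of the table (adjusted p = 0.0368).

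Mrps18a, which is related in sequence to a bacterial small subunit protein but sits in the large subunit (probe set 17337974), had 9.01, 9.02, 8.81, 8.85 and 8.80 in high fat mice, against 9.10, 9.43, 9.05 and 9.29 in low fat mice. The diets did not overlap, but low fat mouse 3 lay just above high fat mice 1 and 2. The difference was -0.32 ± 0.09 (SE), 1.25-fold lower, with a limma adjusted p of 0.0241.

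Mrpl45, which lies at the tunnel exit of the large subunit and helps to hold the ribosome at the inner membrane (probe set 17255762), had 7.71, 7.66, 7.65, 7.54 and 7.54 in high fat mice, against 7.85, 7.71, 7.83 and 7.97 in low fat mice. High fat mouse 1 and low fat mouse 2 met at the same level. The difference was -0.22 ± 0.06 (SE), 1.16-fold lower (limma adjusted p = 0.0278).

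Mrpl51, a large subunit protein without bacterial homologue (probe set 17463140), had 9.30, 9.24, 9.02, 9.20 and 9.13 in high fat mice, against 9.38, 9.47, 9.29 and 9.41 in low fat mice. High fat mouse 1 reached just past low fat mouse 3. The difference was -0.21 ± 0.06 (SE), 1.16-fold lower (limma adjusted p = 0.0363). Mrpl49, Mrps15 and Mrpl10 passed the threshold in all 22 alternative settings, with differences between -0.44 and -0.32, between -0.38 and -0.30, and between -0.32 and -0.22 in that order. Mrps18a and Mrpl45 passed in 15 of the 22 and Mrpl51 in 12. Not all of the 22 could change a call, since any gene called at 0.05 also passes the looser threshold of 0.1. Taking the mean over probe sets leaves the difference of a gene with 1 probe set as it was.

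**Figure D2:**
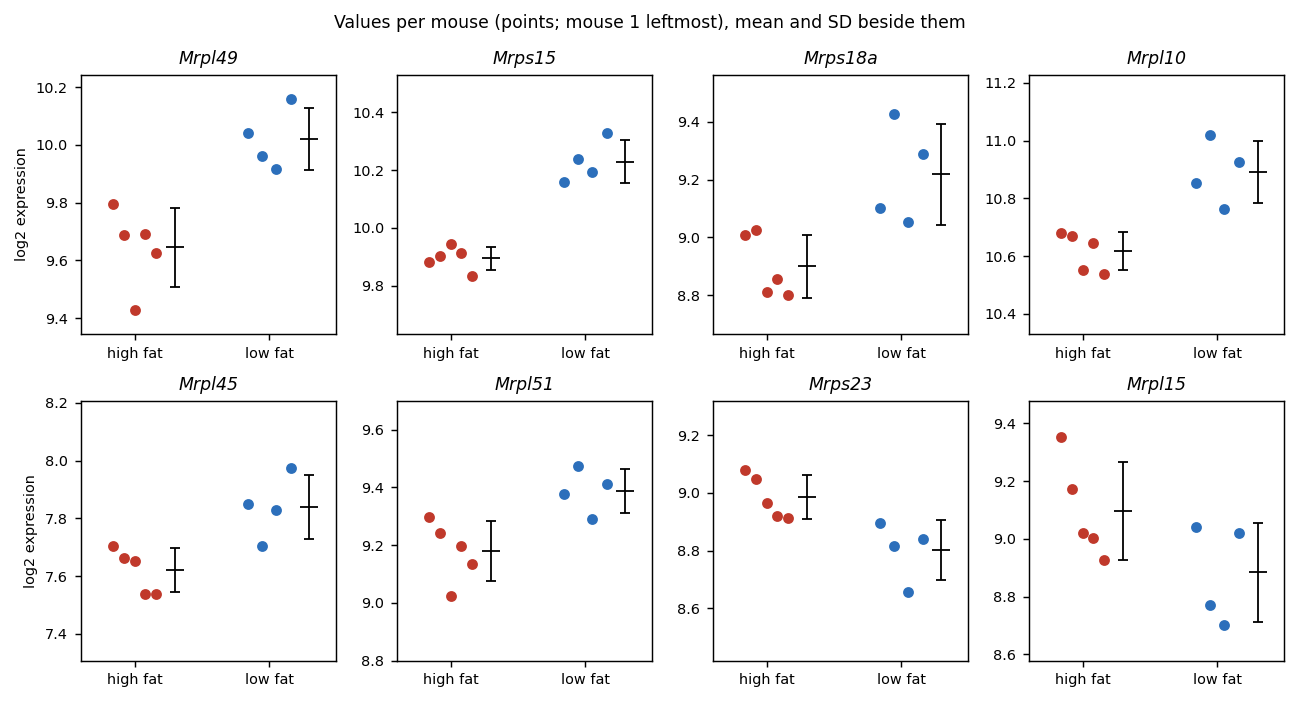
Log2 expression (vertical axis) of the 6 members that fell and of Mrps23 and Mrpl15, the 2 with the highest differences, in each high fat mouse (red points, left) and each low fat mouse (blue points, right). Within each group the mice run from mouse 1 on the left, bars give the mean and SD (n = 5 and n = 4), and each panel spans the same height. The high fat points lie wholly below the low fat points for Mrpl49, Mrps15, Mrps18a and Mrpl10 and wholly above them for Mrps23.

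Promoter windows of 300 bases (250 before to 50 after the start, RefSeq, build GRCm38.p6) were matched for 62 of the 71 genes, which together had 68 windows. They are shown for the 4 genes whose diets separated and passed the test, for Mrps23, which moved the other way, and for Mrps11, whose start lies 42 bases from that of another member, Mrpl46, on the opposite strand. Capitals mark matches, on either strand, to 3 motifs of factors that textbooks connect with mitochondrial genes: CCGGAAG for ETS factors such as Gabpa, GCGCA followed directly by its reverse complement for Nrf1, and AAGATGGCG for Yy1. No printed match overlaps another.
Mrpl49, chr19:6057706-6058005, minus strand: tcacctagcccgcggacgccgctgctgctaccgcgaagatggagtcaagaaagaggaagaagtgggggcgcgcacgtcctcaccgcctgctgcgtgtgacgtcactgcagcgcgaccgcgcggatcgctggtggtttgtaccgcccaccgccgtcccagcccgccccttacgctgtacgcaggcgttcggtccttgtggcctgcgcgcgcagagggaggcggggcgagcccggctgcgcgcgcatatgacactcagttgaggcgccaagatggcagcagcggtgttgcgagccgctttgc
Mrps15, chr4:126046678-126046977, plus strand: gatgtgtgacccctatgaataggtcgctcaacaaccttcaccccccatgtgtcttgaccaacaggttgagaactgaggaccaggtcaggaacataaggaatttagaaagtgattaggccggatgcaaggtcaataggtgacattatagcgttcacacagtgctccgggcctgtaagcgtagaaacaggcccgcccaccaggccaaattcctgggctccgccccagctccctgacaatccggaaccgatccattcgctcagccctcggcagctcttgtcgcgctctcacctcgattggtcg
Mrpl10, chr11:97041332-97041631, plus strand: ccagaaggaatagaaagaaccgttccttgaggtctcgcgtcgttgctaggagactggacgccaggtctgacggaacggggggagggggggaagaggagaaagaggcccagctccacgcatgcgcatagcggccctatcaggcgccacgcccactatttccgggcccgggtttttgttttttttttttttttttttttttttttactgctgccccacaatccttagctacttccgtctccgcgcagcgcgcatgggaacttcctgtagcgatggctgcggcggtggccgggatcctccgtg
Mrps18a, chr17:46110754-46111053, plus strand: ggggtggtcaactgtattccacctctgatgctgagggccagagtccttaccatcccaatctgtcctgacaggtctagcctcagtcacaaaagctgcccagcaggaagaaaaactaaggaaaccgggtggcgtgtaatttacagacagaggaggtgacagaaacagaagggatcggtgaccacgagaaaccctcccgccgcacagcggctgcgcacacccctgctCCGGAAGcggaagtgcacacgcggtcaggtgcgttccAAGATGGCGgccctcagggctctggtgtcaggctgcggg
Mrps23, chr11:88204138-88204437, plus strand: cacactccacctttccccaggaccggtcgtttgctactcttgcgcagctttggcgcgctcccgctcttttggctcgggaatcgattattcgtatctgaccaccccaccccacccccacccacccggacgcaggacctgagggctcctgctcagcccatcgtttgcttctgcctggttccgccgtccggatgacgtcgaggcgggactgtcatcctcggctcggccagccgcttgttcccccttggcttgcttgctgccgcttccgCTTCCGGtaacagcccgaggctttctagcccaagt
Mrps11, chr7:78782881-78783180, plus strand: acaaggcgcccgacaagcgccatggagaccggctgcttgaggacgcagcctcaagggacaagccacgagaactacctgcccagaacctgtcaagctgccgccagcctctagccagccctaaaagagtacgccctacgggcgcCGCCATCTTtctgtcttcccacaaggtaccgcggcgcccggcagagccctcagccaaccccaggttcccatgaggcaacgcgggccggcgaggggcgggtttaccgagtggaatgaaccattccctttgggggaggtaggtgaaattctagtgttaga
The windows of Mrpl49, Mrps15 and Mrpl10 held none of the 3 motifs in these letters. That of Mrps18a held the ETS and the Yy1 motif on the plus strand, that of Mrps23 the ETS motif on the reverse strand, and that of Mrps11 the Yy1 motif on the reverse strand. Of the members that fell whose windows are not printed, Mrpl51 had the ETS motif on the plus strand and Mrpl45 had none. Among the 68 windows of members, 33.8% held the ETS motif, 4.41% the Nrf1 motif and 11.8% the Yy1 motif. Among all 32851 windows of that length these shares were 8.86%, 0.971% and 1.4%. The members' windows also had more G and C, with a median of 58.5% against 52.7%. The 23 members with the ETS motif had a median difference of -0.04 and the 39 without it -0.13, and the 8 with the Yy1 motif -0.06 and the 54 without it -0.10. The 3 with the Nrf1 motif had a median of -0.14 and the 59 without it -0.08. None of these contrasts by motif was tested. A match is a run of letters and not a bound site.

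Mrps11, whose protein lies in the small subunit, and Mrpl46, in the large subunit, share the stretch printed above between their starts. Mrps11 differed by -0.01 ± 0.04 (SE) and Mrpl46 by 0.03 ± 0.08 (SE), and neither passed the limma test (adjusted p = 0.878 and 0.858). In all, 21 members had the start of another gene on the opposite strand within 500 bases, and the share among all genes was not computed. Besides Mrps11 and Mrpl46, such neighbours include Sars2, the mitochondrial seryl-tRNA synthetase next to Mrps12. Sars2 was at 7.89 ± 0.12 (SD, n = 5) with high fat and 8.05 ± 0.10 (SD, n = 4) with low fat diet, and Mrps12 differed by -0.04 ± 0.07 (SE). As deposited neither passed the limma test (adjusted p = 0.125 for Sars2 and 0.752 for Mrps12). With centred arrays Sars2 passed, at a difference of -0.21 (adjusted p = 0.0432), and Mrps12 did not (0.408).

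At the other end of the range lay Mrpl15 and Mrps23. Mrpl15, a large subunit protein with a bacterial homologue, had 9.35, 9.17, 9.02, 9.005 and 8.93 in high fat mice, against 9.04, 8.77, 8.70 and 9.02 in low fat mice. The groups overlapped, and the difference of 0.21 ± 0.10 (SE) missed the limma threshold (adjusted p = 0.181). Mrps23, a small subunit protein without bacterial homologue, had 9.08, 9.05, 8.96, 8.92 and 8.91 in high fat mice, against 8.90, 8.82, 8.66 and 8.84 in low fat mice. Every high fat mouse lay above every low fat mouse. The difference was 0.18 ± 0.06 (SE) and missed the threshold (limma adjusted p = 0.0528). Mrps23 passed with dim genes left out (adjusted p = 0.0362) and with cyclic loess (adjusted p = 0.0366), but with centred arrays its difference was 0.14 (adjusted p = 0.0998). Of the other genes with the highest differences, Mrpl23, near the exit tunnel, was at 0.14, and Mrpl54, Mrps28, Mrps18b, Mrpl42 and Mrpl48 lay between 0.06 and 0.09. None of these 6 passed the limma test in either scaling (adjusted p from 0.248 to 0.457 as deposited).

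Centring changed the call of 9 members, all of them from not passing to lower. They were Mrpl50, Mrpl38, Mrpl37 and Mrpl58 of the large subunit without bacterial homologues, Mrpl1, Mrpl3, Mrpl9 and Mrpl55 of the large subunit with such homologues, and Mrps31 of the small subunit. As deposited these 9 had limma adjusted p from 0.0604 for Mrpl50 to 0.15 for Mrpl1. Mrpl58, a release factor that frees peptides from stalled ribosomes, was at 8.61 ± 0.05 (SD, n = 5) with high fat and 8.75 ± 0.10 (SD, n = 4) with low fat diet. Its difference was -0.14 as deposited and -0.18 with centred arrays (limma adjusted p = 0.102 and 0.0335). Mrpl38 had 9.31 ± 0.05 (SD, n = 5) with high fat and 9.52 ± 0.16 (SD, n = 4) with low fat diet, and its diets did not overlap in either scaling. Mrpl50 and Mrpl9 did not overlap either, at differences of -0.14 and -0.13 as deposited.

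Of the other members of low difference, Mrps35 had a wide spread in both diets, with SDs of 0.17 (high fat, n = 5) and 0.16 (low fat, n = 4). Mrps26 had a wide spread in low fat mice only, with SDs of 0.06 (n = 5) and 0.20 (n = 4). With centred arrays the diets did not overlap for Mrps26 but did for Mrps35. Mrps35 differed by -0.23 ± 0.10 (SE) and Mrps26 by -0.21 ± 0.08 (SE), both small subunit proteins without bacterial homologues, and neither passed the limma test as deposited (adjusted p = 0.13 and 0.112) or centred (0.0639 and 0.0585). The widest spread within a diet was that of Mrpl20, the homologue of a bacterial assembly protein. It had 8.21, 8.13, 7.42, 7.92 and 7.60 in high fat mice, against 7.91, 7.91, 7.75 and 7.91 in low fat mice. The high fat values surrounded the low fat values, with an SD of 0.34 (n = 5) against 0.08 (n = 4), and the difference was -0.01 ± 0.15 (SE). Mrpl32 in high fat mice (SD of 0.25, n = 5) and Mrps25 in low fat mice (SD of 0.24, n = 4) came next.

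The diet difference was also set out by subunit and by origin. The median was -0.08 for the 45 large subunit genes and -0.08 for the 25 small subunit genes, with SDs of 0.12 and 0.12. Of the 6 members that fell, 5 belong to the large subunit and 1, Mrps15, to the small subunit. These are 11.1% and 4% of the genes, against 9.13% of all genes. With centred arrays 13 of 45 (28.9%) and 2 of 25 (8%) were lower, against 13.8% of all genes. The 43 genes with a bacterial homologue had a median of -0.08 and 2 that fell, and the 27 without one a median of -0.13 and 4 that fell (4.65% and 14.8%). With centred arrays these counts were 6 and 9 (14% and 33.3%). None of these contrasts between classes was tested.

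The 3 paralogous genes Mrps18a, Mrps18b and Mrps18c did not move alike in size. Mrps18a fell, as given above. Mrps18b was at 9.34 ± 0.04 (SD, n = 5) with high fat and 9.27 ± 0.07 (SD, n = 4) with low fat diet, with a difference of 0.07 ± 0.04 (SE) and a 95% interval from -0.03 to 0.17. Mrps18c was at 7.28 ± 0.08 (SD, n = 5) with high fat and 7.31 ± 0.04 (SD, n = 4) with low fat diet, with a difference of -0.03 ± 0.05 (SE) and an interval from -0.14 to 0.08. Neither passed the limma test (adjusted p = 0.303 and 0.69), and the differences between the paralogs were not tested. The second probe sets of Mrps18b and Mrps18c gave 0.11 and -0.08.

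Mrpl12, whose protein forms the stalk on Mrpl10 and in human cells also binds the mitochondrial RNA polymerase, had 8.36, 8.40, 8.29, 8.24 and 8.09 in high fat mice, against 8.31, 8.50, 8.03 and 8.38 in low fat mice. The groups overlapped, and the difference of -0.03 ± 0.09 (SE) missed the limma threshold (adjusted p = 0.881). Mrps30 differed by -0.13 ± 0.10 (SE), Mrpl57 by -0.04 ± 0.06 (SE) and Mrps36 by -0.17 ± 0.09 (SE), and none of the 3 passed (limma adjusted p = 0.402, 0.714 and 0.221). Mrps36 was also the dimmest member, at a mean of 6.07, followed by Mrpl27 and Mrps14 at 6.28 and 6.35. These 3 lay below the array medians, and whether they were above background was not determined. The brightest after Mrpl10 were Mrpl34 and Mrpl52, with differences of -0.04 and -0.07. Of the 71 members, 64 lay above the median level of all genes. The difference and the mean level had a Pearson correlation of -0.13 over the 71 genes, which share the 9 arrays, against 0.08 over all genes.

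Within a diet the members tended to move together from mouse to mouse. Relative to the midpoint of each gene's diet means, the median deviation of the 71 genes was 0.01, 0.02, -0.08, -0.08 and -0.10 in high fat mice 1 to 5, against 0.03, 0.06, -0.03 and 0.09 in low fat mice 1 to 4. High fat mice 1 and 2 lay above low fat mouse 3, so the groups overlapped. As deposited the range was 0.12 within high fat mice and 0.12 within low fat mice. Both are more than the size of the members' median diet difference (-0.08). With centred arrays the medians were -0.02, -0.02, -0.09, -0.10 and -0.11 in high fat mice, against 0.03, 0.08, -0.01 and 0.13 in low fat mice, and the groups no longer overlapped, by a narrow margin. Their range was then 0.09 within high fat mice and 0.13 within low fat mice. Only the low fat range was more than the size of the centred median diet difference (-0.12). In high fat mouse 2, 65 of 71 members lay above their own high fat mean (91.5%), with 54.4% of all genes. In low fat mouse 3 only 11 of 71 lay above their low fat mean (15.5%), with 47.8% of all genes.

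The members closest to this shared pattern, by Pearson correlation over the 9 mice after each diet's mean was removed, were Mrpl18 (0.95), Mrpl58 (0.92) and Mrps7 (0.92). The median over the 71 members was 0.65 and 64 were above 0, each member being itself part of the median it was compared with. The mean of the skeletal muscle genes was highest in high fat mouse 1 and low fat mouse 4. In these mice 56 and 56 of 71 members lay above their diet's mean, with 50.4% and 50.6% of all genes. High fat mouse 2, with the most members above its mean, had the lowest skeletal muscle mean of all mice (6.65). Without high fat mouse 1 and low fat mouse 4, 3 members were lower (Mrpl10, Mrpl49 and Mrps15) against 6.41% of all genes. In that fit 0 members were higher, against 8.49% of all genes, and the members' median was -0.09. Low fat mouse 2 had the highest means of the brown adipocyte and smooth muscle lists. Without it, 4 members were lower (Mrpl10, Mrpl45, Mrpl49 and Mrps15) and 0 higher, against 7.69% and 10.8% of all genes, and the median was -0.06. Arrays of high fat mice 1 and 2 also had the widest distributions, with an SD over all genes of 1.90 in each, while high fat mice 3 to 5 had 1.86 to 1.88. Without both of them, 9 members were lower and 0 higher, against 6.74% and 7.74% of all genes, and the median was -0.10. These fits have fewer mice, and leaving out each single mouse in turn already gave 3 to 9 lower members, so their counts do not test a cause. The part of muscle, of brown adipocytes or of array spread in the level of these genes was not tested.

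**Figure D3:**
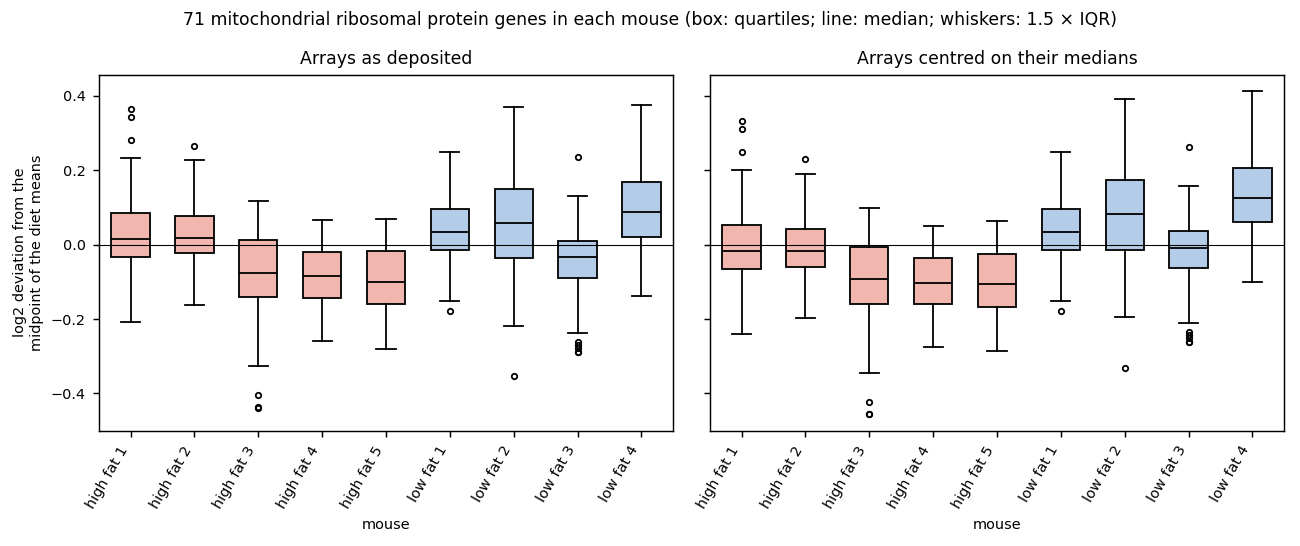
Deviation of the 71 genes from the midpoint of their diet means (vertical axis, log2) in each high fat mouse (red boxes, left) and each low fat mouse (blue boxes, right), with arrays as deposited (left panel) and centred on their medians (right panel). Boxes give the quartiles, lines the medians, whiskers reach 1.5 times the interquartile range and circles are genes beyond them. Medians run from -0.10 to 0.02 in high fat mice and from -0.03 to 0.09 in low fat mice as deposited, and overlap in the left panel only.

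Genes that work with the mitochondrial ribosome were also lower where they passed the test. The counts below stand against 9.13% of all genes lower and 12.4% higher as deposited, and 13.8% and 10% with centred arrays. Of 25 assembly factors and ribosomal RNA modifying enzymes, 5 were lower and 0 higher (20%, median -0.11), and 8 were lower with centred arrays (32%). Trub2, a pseudouridine synthase, was 1.24-fold lower and Eral1, a chaperone of the small subunit RNA, 1.16-fold lower (limma adjusted p = 0.0122 and 0.0159). The others were Mterf3, Mettl15 and Mettl17. Of 14 translation factors and activators, 3 were lower and 0 higher (21.4%, median -0.12), and 5 were lower with centred arrays (35.7%). The 3 were Oxa1l, the insertase of the inner membrane, 1.17-fold, Mrrf, the ribosome recycling factor, 1.19-fold, and Tufm, the elongation factor that delivers aminoacyl-tRNA, 1.18-fold. Their limma adjusted p was 0.00738, 0.00915 and 0.0384.

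Of 19 measured mitochondrial aminoacyl-tRNA synthetases and amidotransferase subunits, 5 were lower and 0 higher (26.3%, median -0.15), and 7 were lower with centred arrays (36.8%). Nars2 and Iars2, the asparaginyl- and isoleucyl-tRNA synthetases, were 1.35-fold and 1.30-fold lower (limma adjusted p = 0.00255 and 0.00488), and Vars2, Cars2 and Lars2 also fell. Of 12 genes for mitochondrial DNA replication, transcription and RNA stability, 2 were lower and 0 higher (16.7%, median -0.07), and 3 were lower with centred arrays (25%). As deposited they were Polg2, the accessory subunit of the DNA polymerase, 1.24-fold, and Tfb2m, a transcription factor, 1.29-fold (limma adjusted p = 0.00281 and 0.00626), while Tfam, which packages mitochondrial DNA, was at -0.04. The 3 mitochondrial ribosomal protein genes with other names that were measured, Ptcd3, Dap3 and Gadd45gip1, had differences of -0.38, -0.09 and -0.06, and none passed (limma adjusted p from 0.174 to 0.47).

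Of 10 regulators of mitochondrial biogenesis, 1 was lower (10%) and 1 higher (10%). With centred arrays 2 were lower (20%), the second being Ppargc1b, a coactivator of the same family, at -0.40 (limma adjusted p = 0.0438, and 0.0741 as deposited). Ppargc1a, a coactivator that drives mitochondrial genes, fell by 0.73 ± 0.13 (SE), and Pprc1, a coactivator of the same family, rose by 0.42 ± 0.07 (SE), with limma adjusted p of 0.00269 and 0.00281. Ppargc1a had 7.11 to 7.35 in high fat mice, against 8.40 in low fat mouse 2 and 7.71, 7.96 and 7.74 in the other low fat mice, so that the diets did not overlap with or without that mouse. Ppargc1b had 7.28 to 7.47 in high fat mice, against 8.22 in low fat mouse 2 and 7.56 to 7.61 in the others. Low fat mouse 2 is the one with the highest mean of the brown adipocyte list, in which Ucp1 and Cox8b stood high and Zic1 did not. The part of brown adipocyte genes in these differences was not tested. Nrf1, Gabpa and Yy1, whose motifs were searched above, were at 0.04, 0.02 and 0.10 and did not pass (limma adjusted p = 0.521, 0.836 and 0.195). Of 15 genes of mitochondrial import, pores and matrix, 4 were lower and 0 higher (26.7%), Timm50, Cs, Hspd1 and Hspa9, with a median of -0.01, and 6 were lower with centred arrays (40%).

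For comparison, 23 of 80 nuclear genes of the respiratory chain and ATP synthase were lower and 1 higher, with a median of -0.15 and an SD of 0.18. Of 58 cytosolic ribosomal protein genes 0 were lower and 6 higher, with a median of 0.07 and an SD of 0.09. With centred arrays the medians were -0.20 for the respiratory chain genes and 0.03 for the cytosolic ribosomal genes, with 35 lower and 1 higher and with 0 lower and 2 higher. The mitochondrial ribosomal proteins lay between these groups in both scalings, as the plot of gene groups shows, and the differences between the groups were not tested. In the same tissue 10 of 10 macrophage markers rose, while 6 of 8 adipocyte markers fell and 1, Lep, rose. In bulk tissue fewer cells of a type and less RNA per cell cannot be told apart.

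**Figure D4:**
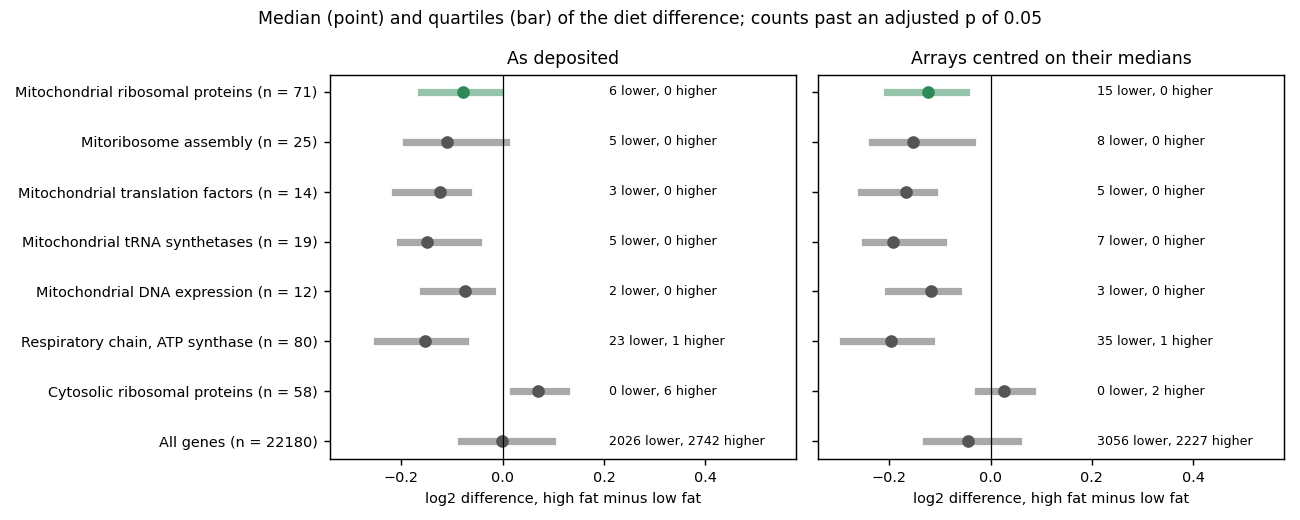
Median (point) and quartiles (bar) of the log2 difference of high fat minus low fat (horizontal axis) for the mitochondrial ribosomal proteins (green) and for 6 other groups and all genes (grey), with arrays as deposited (left) and centred on their medians (right). Counts beside each bar are genes past a limma adjusted p of 0.05. The members' median lies at -0.08 and -0.12, between that of the respiratory chain (-0.15 and -0.20) and that of the cytosolic ribosome (0.07 and 0.03).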

How the data were processed

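Transcript levels were measured in periprostatic fat of 9 mice on Affymetrix Mouse Gene 2.0 ST arrays. The deposited values are log2 expression per probe set, made with R 3.5.0, RMA and limma per the submitters' processing notes, which do not state their roles. RMA corrects background, equalises probe distributions across arrays and summarises probes, so that small differences between arrays can remain. Depth has no counterpart on arrays, and their number limits the precision.

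Of 33793 rows, 23521 carry 1 gene symbol. The brightest probe set over the 9 arrays was kept for each gene, which left 22180 genes. Symbols were checked through Entrez identifiers against RefSeq (GRCm38.p6), which matched 23328 probe sets and changed 0 symbols. Mrp pseudogene symbols ending in a suffix were not members. Subunit and origin classes were assigned by hand from general knowledge.

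High fat minus low fat was fitted in R 4.3.3 by limma 3.58.1, with lmFit and eBayes on an intercept and diet, and Benjamini-Hochberg adjustment ran over all genes at a threshold of 0.05. Members named are the 8 lowest and 8 highest differences, up to 8 of those whose call changed with centring, the 3 brightest, 3 dimmest and 3 of largest SD, the 3 closest to the shared pattern, and a fixed group of 8. From each related list the genes of smallest p are named; Mrpl1, Mrps11, Mrpl46 and Mrps12 are named besides, and all were chosen with their values known. The members and lists were chosen with earlier results of these data known. The respiratory chain and cytosolic ribosome groups were taken by symbol after the data had been seen. Alternatives covered normalization, a filter on dim genes, the choice of probe sets, the variance model, array weights, mouse number as a block, all rows, a looser threshold and left-out mice. The procedure was tested on simulated data.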

Additional observations from a re-analysis of the deposited data

Results flagged for a closer look

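In low fat mice, Mrpl20 was at 7.753 in mouse 3, against 7.908 to 7.911 in the other 3. The gap was 0.98 of the group's range, which set mouse 3 far from the rest. For Mrpl27, low fat mouse 2 was at 6.375 and its group mates at 6.291 to 6.301, a gap of 0.882 of the range. These were 2 of 78 groups of values examined, and chance alone gives about 1 in 20.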

How the results depend on the processing

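As deposited, 6 members were lower and 0 higher in high fat mice. The count of lower members was 15 with arrays centred on their medians, 20 with quantile normalization repeated and 13 at an adjusted p of 0.1, against 13.8%, 12.5% and 12.2% of all genes. Other settings gave shares near or below those of all genes. With cyclic loess 8 members were lower (11.3%), against 10.2% of all genes. With dim genes left out 8 of 64 were lower (12.5%), against 17.4% of the genes kept. With array weights 5 were lower (7.04%), against 8.8% of all genes. With quantile normalization the members' median minus that of all genes was -0.11, against -0.08 as deposited. The count of lower members was 3 without high fat mouse 1 and low fat mouse 4 together, against 6.41% of all genes. That setting was chosen after seeing the data, because the mean of the skeletal muscle genes stood high in both. Without high fat mouse 1 and low fat mouse 2 together it was 4, against 6.87% of all genes. With high fat mice 1 and 2 left out it was 9, against 6.74% of all genes. The count of higher members was 1, Mrps23, with cyclic loess, with dim genes left out, with array weights and at an adjusted p of 0.1. In that order 2684 of 22180, 2548 of 11090, 2742 of 22180 and 3402 of 22180 genes were higher. Leaving out each mouse in turn gave 3 to 9 lower members, with 3 without high fat mouse 4, high fat mouse 5 or low fat mouse 4 and 9 without low fat mouse 3. In these fits 6.88% to 8.23% of all genes were lower, with 7.98% without low fat mouse 3. They gave 0 to 1 higher members (1 without low fat mouse 1), while 2153 to 2604 of 22180 genes were higher. Medians of the members lay between -0.10 and -0.06, and medians relative to that of all genes between -0.10 and -0.06. The same fits had 3759 to 4364 genes changed, against 4768 with all mice. Without high fat mice 1 and 2 together 3210 genes changed. With mouse number as a replicate block, 5 members were lower, against 7.28% of all genes, and 0 were higher, against 2421 of 22180 genes. The median was -0.07, and Mrpl45 no longer passed (limma adjusted p = 0.12). However, the labels state no pairing of mice across diets, and deviations of same-numbered mice correlated at only 0.08, 0.13, 0.07 and 0.05. No called direction was reversed. Of the values under the alternatives for the 38 members named by rule, which leave out Mrpl1, Mrps11, Mrpl46 and Mrps12, 770 kept their side of the threshold and their direction where called, 39 passed only under the alternative and 24 no longer passed. The cause of these changes was not tested. With 5 and 4 mice, differences of the size seen in most members lay within their 95% intervals of 0, and signal over background was not given with the values.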
